A study of Mus musculus with 24 samples.

Results

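Astrocytes take up glucose, break it down to pyruvate and lactate, and hold most of the glycogen of the brain. The data described here are the levels of 35 genes of this chemistry, of 49671 genes in a table of RNA-seq read counts, in mouse neural stem cells and astrocytes. The 35 were taken by name from a list of glycolytic enzymes, lactate dehydrogenases, glucose and lactate carriers, gatekeepers of mitochondrial pyruvate entry, glycogen enzymes, pyruvate carboxylase and a fructose bisphosphatase, by matching the Ensembl identifiers of the table to symbols of the Gencode mouse annotation. All 35 were found, and all 35 passed the filter on low counts that left 19691 genes for testing. The names were chosen without a threshold on their values, but with earlier results of these data known.

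Glucose enters through carriers such as Slc2a1 (GLUT1), is phosphorylated by hexokinase and is split by aldolase into trioses that yield pyruvate. Lactate dehydrogenase converts pyruvate and lactate into each other, and monocarboxylate carriers move lactate across the membrane, so that astrocytes can pass lactate to neurons. Several of the steps are run by isozymes, products of separate genes that differ in regulation and in tissue, and glycogen is made by a synthase and a branching enzyme and opened by phosphorylases.

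The study set ESC-derived astrocytes beside primary ones, 24 libraries in 6 groups of 4. NSC are neural stem cells of 1 C57BL/6N embryonic stem cell line (GSC-5003), kept with FGF and EGF at 20 ng/ml for 50 to 60 passages. AGES are astrocytes made from these NSC by BMP4 at 20 ng/ml for 3 to 5 days, and the replicates of both groups are cultures from different passages. Primary cells came from wild-type C57BL/6J mice of both sexes (2 mice for each isolation), neonatal (neoAC, postnatal days 4 to 8) or adult (AdAC, 100 to 140 days), by magnetic sorting with ACSA-2 beads. They were frozen at once (neoAC direct, AdAC direct) or kept for 7 to 10 days in AstroMACS medium (neoAC CellC, AdAC CellC). The adult kit included removal of debris and red cells and the neonatal kit did not, so that age and isolation cannot be told apart. Removal of the olfactory bulb and cerebellum was stated for AdAC direct alone, so a difference in brain region between AdAC direct and AdAC CellC cannot be told apart from culture. Likewise cell origin cannot be told apart from medium between AGES and the primary cultures. In the questions of the study the sugar metabolism of these models had a place, since glucose uptake and lactate release were also assayed; those assays were not analysed here.

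Library totals ran from 27904126 to 37997368 counts, of which the 35 genes took 0.84% ± 0.024 in AdAC CellC and 1.35% ± 0.0738 in AGES, the lowest and the highest group means. Levels are given in CPM, the counts of a gene scaled to a common library size after TMM normalisation, means carry ± SD with n = 4 libraries, and log2 fold changes carry ± SE from 1 edgeR quasi-likelihood fit of all 24 libraries, with Benjamini-Hochberg adjustment over the 19691 genes. A gene was called at an adjusted p under 0.05, "rose" and "fell" are used of called genes, and groups are said not to overlap where every library of one lay above every library of the other. In bulk RNA, fewer cells of a type and less RNA per cell cannot be told apart.

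The astrocyte markers (Aldh1l1, Gfap, Aqp4, Slc1a2, Slc1a3, S100b, Gja1 and Atp1b2), summed within a library, ran from 51718 to 56803 CPM in AGES, with Gfap leading, from 19081 to 22473 CPM in neoAC direct, from 13701 to 14327 CPM in AdAC direct and from 7021 to 8229 CPM in neoAC CellC. Gfap alone had a mean of 50503 CPM in AGES, of a mean sum of 53767 CPM, so the place of AGES in this order rests on 1 gene. Of the 8 markers, 2 were higher and 4 lower in AGES than in neoAC CellC (median log2 fold change -0.22). In AdAC CellC they are given next. The 8 markers summed to 867 to 1322 CPM in AdAC CellC, below the 1643 to 2021 CPM of NSC. Slc1a3 led both sums, with a mean of 1499 CPM in NSC (mean sum 1857 CPM) and 219 CPM in AdAC CellC (mean sum 1086 CPM). The place of AdAC CellC below NSC thus rests on Slc1a3. The AdAC CellC sum was also the lowest of all groups labelled as astrocytes, so by this sum that label is uncertain. Oligodendrocyte markers (7 genes) summed to 26638 to 29525 CPM in AdAC direct and to 4353 to 11127 CPM in AdAC CellC, above the astrocyte sums of the same groups, but to at most 398 CPM in any other library. Markers of pericytes and smooth muscle (4 genes) summed to 855 to 1016 CPM in AdAC CellC and 289 to 313 CPM in AdAC direct, and those of ependymal cells (4 genes) to 1435 to 1834 CPM in neoAC CellC, 1009 to 1141 CPM in AdAC direct and 127 to 196 CPM in neoAC direct. Most of the pericyte sum of AdAC CellC was Acta2, with a mean of 813 CPM. In adult culture 1 of the 4 pericyte markers rose and 3 fell (median log2 fold change -0.90). The pericyte sums were 302 to 663 CPM in neoAC CellC, led by Acta2, and 226 to 468 CPM in neoAC direct, led by Rgs5. In neonatal culture 4 of 4 ependymal markers rose, 6 of 8 astrocyte markers fell and 3 of 4 pericyte markers fell (median log2 fold changes 3.23, -1.01 and -4.15). There 6 of 7 oligodendrocyte markers rose and 1 fell (median 1.15), and 4 of 5 endothelial markers fell (median -4.84). Of 6 microglia markers 4 fell and 1 rose (median -1.64). In adult culture 4 of 4 ependymal markers fell (median -3.00). The astrocyte sums did not overlap between any pair of groups, so marker levels move with every comparison below, neonatal ones included, and their part in the results was not tested. The 8 proliferation genes summed to 3715 to 3818 CPM in NSC, to 979.9 to 1192 CPM in AdAC CellC, to 888 to 1216 CPM in neoAC CellC and to 342 to 559 CPM in neoAC direct, but to 17.3 to 20.5 CPM in AGES and 19.3 to 22.3 CPM in AdAC direct. Between neoAC CellC and AdAC CellC 1 of the 8 was higher and 3 were lower, and in every other pairwise comparison all 8 were called in 1 direction. Their part was not tested. Some genes have near-identical copies elsewhere in the genome: 16 of the 35 shared a stretch of at least 100 bases at 96% identity with another gene, among them Gapdh, Pgk1, Eno1, Pkm and Ldhb over more than 50% of the coding transcript, and how reads with several alignments were counted was not stated, so these 5 are less certain.

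One library stood apart. NSC replicate 2 exceeded the highest of the other 3 NSC libraries by over 1.5-fold for 12 of the 35 genes (Gpi1, Pfkl, Aldoa, Tpi1, Pgk1, Pgam1, Ldha, Slc2a1, Pdk1, Gys1, Gbe1 and Ppp1r3c), against 6.96% of all genes tested. It did so too for 9 of 12 genes of the hypoxia response, although Adm and Car9 among these read only 0.668 and 0.273 CPM in that library. The summed hypoxia genes ran 607 to 1508 CPM in NSC, the upper end being this library. What sets the library apart was not tested, and the calls of AGES against NSC below are given with and without it. The fit shares 1 spread per gene over all groups, so this library also enters the SE of the other comparisons. Without it the SE of AGES against NSC went from 0.48 to 0.12 for Pdk1, 0.30 to 0.13 for Gbe1 and 0.27 to 0.14 for Ppp1r3c. For Hk2 and Pfkp that SE went from 0.32 to 0.33 and from 0.22 to 0.25. Fits of the compared groups alone leave the library out of the other comparisons.

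The promoters of 4 genes that the results turn on are shown next, because a DNA word bound by hypoxia-inducible and E-box factors recurs in the group. The windows are RefSeq promoters of GRCm38.p6, 300 bases each from 250 before to 50 after the annotated start, 5′ to 3′ on the strand of the gene, with every match to ACGTG on either strand in capitals (CACGTG, a palindrome, contains the word on both strands). Where a gene had more than 1 listed promoter, the one with the most matches is shown. Ldha and Aldoc each had 2 promoters, of which only 1 held the word. Ldha, the dehydrogenase subunit that prevails in glycolytic tissue, lies on the plus strand with its window at chr7:46845554-46845853 and held 5 matches, with CACGTG at 2 places. Hk2, the inducible hexokinase, lies on the minus strand at chr6:82774405-82774704 and held 2 matches. Aldoc, the brain aldolase, lies on the plus strand at chr11:78322823-78323122 and held 1. Ppp1r3c, which tethers protein phosphatase to glycogen, lies on the minus strand at chr19:36736555-36736854 and held 3, of which CACGTG gave 2.
Ldha: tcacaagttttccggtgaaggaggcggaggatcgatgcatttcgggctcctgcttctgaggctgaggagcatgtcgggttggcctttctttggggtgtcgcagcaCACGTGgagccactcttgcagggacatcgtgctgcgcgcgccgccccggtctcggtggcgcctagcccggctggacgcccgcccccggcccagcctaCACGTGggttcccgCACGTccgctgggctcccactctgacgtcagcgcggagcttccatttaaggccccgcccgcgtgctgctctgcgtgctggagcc
Hk2: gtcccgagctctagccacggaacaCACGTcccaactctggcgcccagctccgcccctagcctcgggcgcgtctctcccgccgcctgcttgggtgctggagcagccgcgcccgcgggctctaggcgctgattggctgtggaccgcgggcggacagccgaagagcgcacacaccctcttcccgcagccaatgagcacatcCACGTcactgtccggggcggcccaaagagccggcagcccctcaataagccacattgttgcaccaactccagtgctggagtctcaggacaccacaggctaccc
Aldoc: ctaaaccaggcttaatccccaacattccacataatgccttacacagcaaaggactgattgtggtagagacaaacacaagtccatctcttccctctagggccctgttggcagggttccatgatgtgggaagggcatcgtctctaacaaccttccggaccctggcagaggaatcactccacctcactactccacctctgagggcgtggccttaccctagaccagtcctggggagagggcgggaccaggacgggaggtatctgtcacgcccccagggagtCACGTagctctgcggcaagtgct
Ppp1r3c: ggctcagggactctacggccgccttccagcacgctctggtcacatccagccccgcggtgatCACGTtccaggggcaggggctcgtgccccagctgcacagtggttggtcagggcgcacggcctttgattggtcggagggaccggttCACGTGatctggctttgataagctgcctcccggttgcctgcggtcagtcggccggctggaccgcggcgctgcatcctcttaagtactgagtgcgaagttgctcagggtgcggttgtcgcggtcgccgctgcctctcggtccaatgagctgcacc

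Of the 52 RefSeq promoters listed for the 35 genes, 24 (46.2%) held ACGTG on either strand, against 19.6% of the 32851 promoters in the table, and 8 (15.4%) held CACGTG, against 7.15%. Counted by gene, 21 of 35 (60%) had a promoter with ACGTG, against 21.8% of 27025 genes. Among the 12 genes that stood high in NSC replicate 2, 6 had the word, and among the other 23 genes 15 had it. A match of letters is a description, not a bound site.

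**Figure D1:**
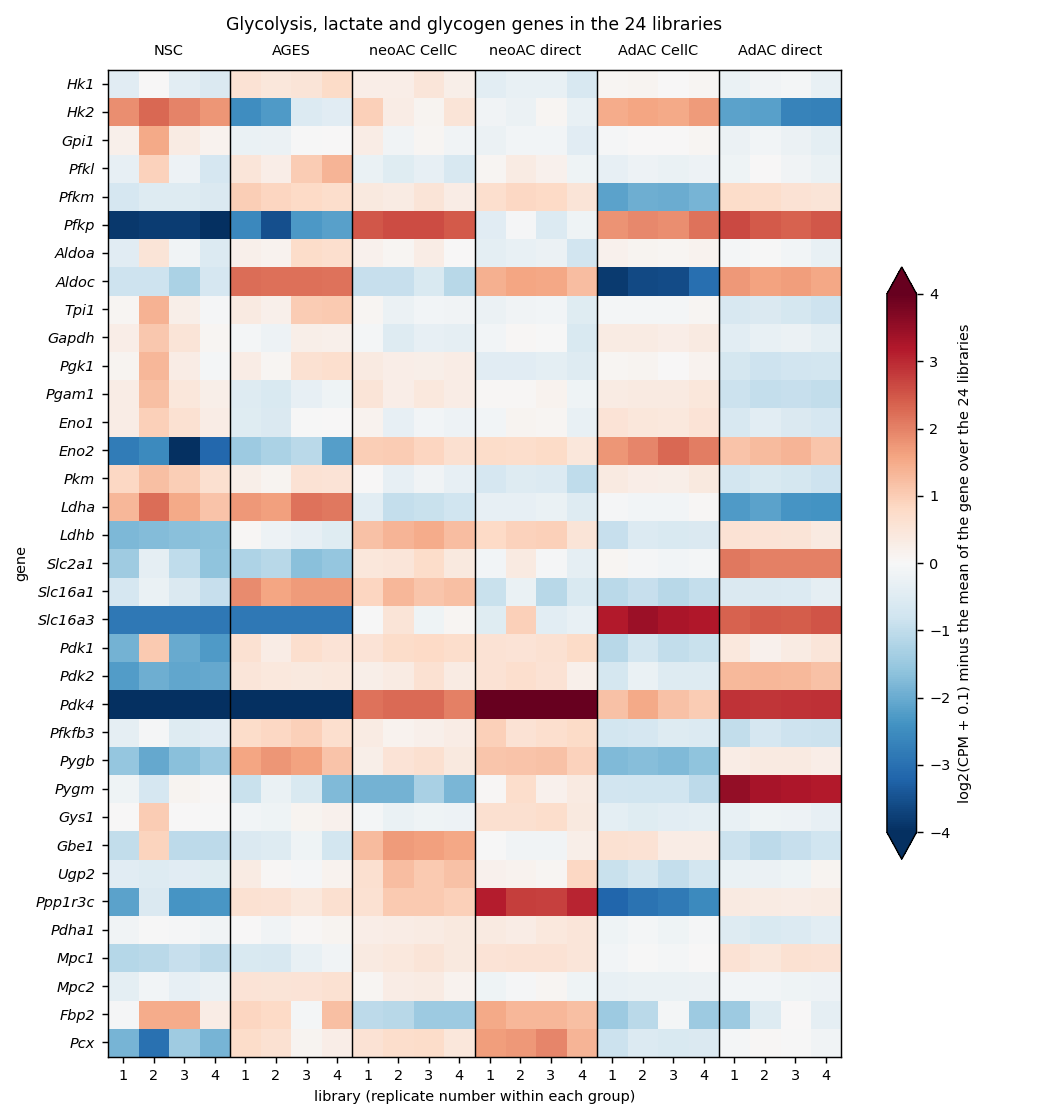
Level of each of the 35 genes (rows, ordered by role) in each of the 24 libraries (columns, ordered by group), as log2(CPM + 0.1) minus the mean of that gene over all libraries, with the colour scale ending at 4 in either direction. The 4 libraries of a group mostly share a colour, and NSC replicate 2 lies over 1.5-fold above the other NSC libraries in 12 genes.

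Culture of adult astrocytes went with a higher level of 14 of the 35 genes and a lower level of 15, against 38.8% and 39.2% of all genes tested, and 6 rose and 10 fell by at least 2-fold, against 23.3% and 25.4%. Culture of neonatal astrocytes went with 12 higher and 11 lower, against 34.4% and 31.3%, and with 3 and 6 at 2-fold, against 19.3% and 13.3%. With library totals alone as the scaling, the neonatal split became 16 higher and 9 lower, in a fit where the median of all genes stood at 0.27 on the log2 scale. Both adult shares lay near those of all genes. Of the 35 genes, 32 did not overlap between AdAC CellC and AdAC direct (background 76.3%), and 21 did not overlap between neoAC CellC and neoAC direct (background 58%).

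Differentiation of NSC to AGES went with a higher level of 17 genes and a lower level of 7, against 31.7% and 34% of all genes, with 11 up and 1 down by at least 2-fold, against 19.5% and 18.4%. Without NSC replicate 2, 22 were higher and 6 lower, against 31.1% and 32.9%, and 14 and 1 passed 2-fold, against 19.8% and 18%. Of the calls, 23 were made both ways, 5 were made only without that library (Tpi1, Pgk1, Ldha, Pdk1 and Gbe1) and 1 only with it (Gapdh). No overlap between AGES and NSC was seen for 20 genes (background 58.3%). The median log2 fold change of the 35 genes was 0.56, beside 0.0 for all genes.

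Against the primary cultures, AGES were higher than AdAC CellC for 18 genes and lower for 10 (background 31% and 45.2%), and higher than neoAC CellC for 14 and lower for 12 (background 34.1% and 40.5%). At 2-fold these counts were 11 and 6 against AdAC CellC (background 15.5% and 31.1%), and 5 and 8 against neoAC CellC (background 13.8% and 29.8%). Scaled by library totals alone, the split of AGES against neoAC CellC was 9 higher and 17 lower, and that scaling moved the median of all genes to -0.45 against AdAC CellC and to -0.37 against neoAC CellC, from -0.23 and -0.07. Levels did not overlap for 29 genes between AGES and AdAC CellC (background 73.1%) and for 23 between AGES and neoAC CellC (background 69.6%). The comparisons share their AGES libraries.

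By age, 19 genes were higher and 8 lower in neoAC CellC than in AdAC CellC (background 28.5% and 35.2%), 10 and 3 of them by at least 2-fold (background 15.5% and 14.3%). Directly after isolation 15 were higher and 6 lower in neonatal than in adult cells (background 35% and 36.4%), with 7 and 4 at 2-fold (background 16.5% and 22.6%). No overlap was seen for 29 genes in culture (background 62.2%) and for 23 after direct isolation (background 64.9%). The change in culture differed between the ages for 24 genes by the interaction of culture and age, 10 of them with a more positive change in the adult cells and 14 with a more negative one (background 35.4% and 33.2%). For Pfkp, Ldha, Ldhb, Slc2a1, Slc16a1, Pfkfb3 and Ugp2 culture was called in opposite directions in adult and neonatal cells. The share of all genes so called was not counted, so this list has no background. The neonatal calls of Ldha and Slc2a1 and the adult call of Pfkfb3 were lost on leaving out single libraries, as given below. Mean levels were highest in AGES for 11 of the 35 genes, against 15.3% of all genes, and lowest in AdAC direct for 12, against 22.2%, or in AdAC CellC for 8, against 9.75%.

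**Figure D2:**
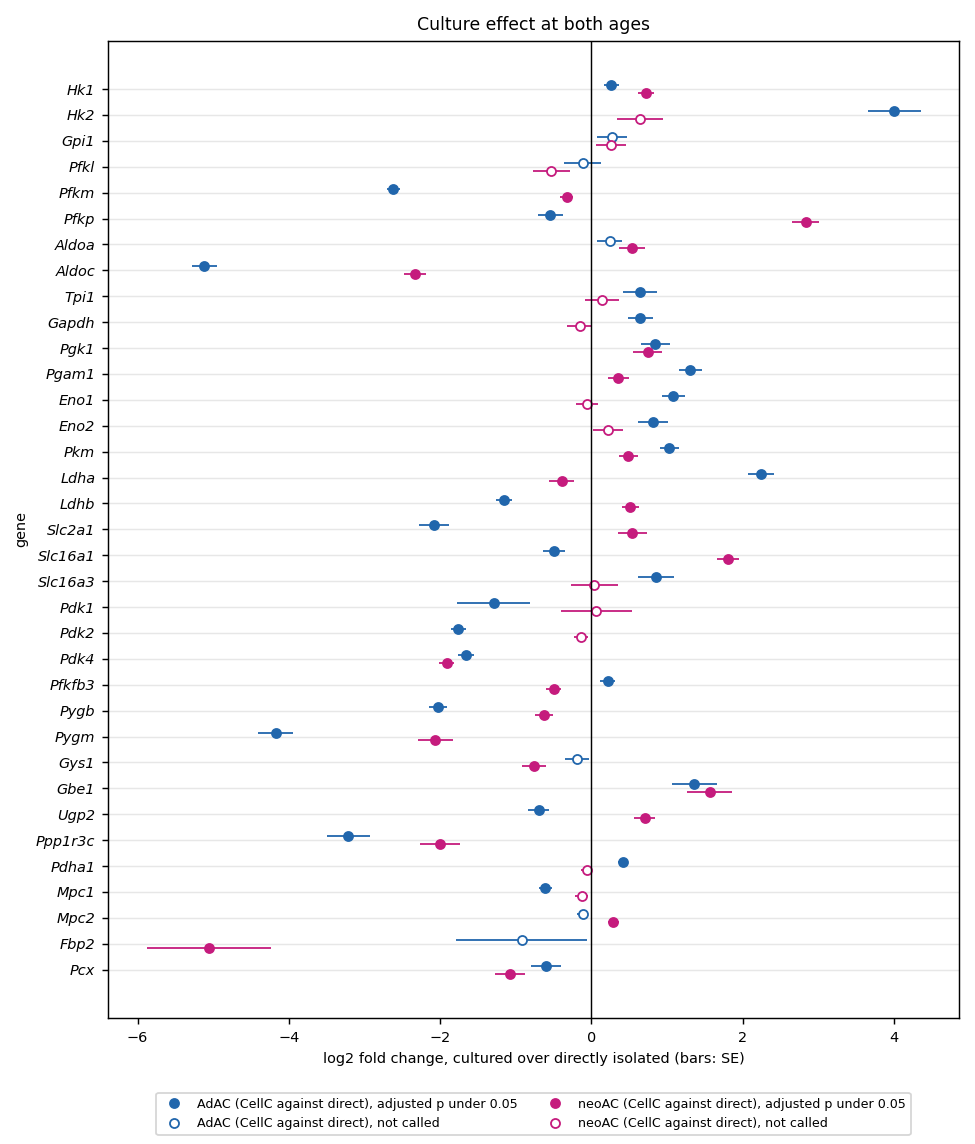
Log2 fold change (± SE) of culture against direct isolation for each of the 35 genes, in adult (AdAC) and in neonatal (neoAC) cells, with filled points for an adjusted p under 0.05. Aldoc, Pygm, Ppp1r3c and Pygb lie below 0 at both ages, whereas Ldha, Ldhb, Slc2a1, Slc16a1 and Pfkp lie on opposite sides.

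In the upper steps of glycolysis, from hexokinase to aldolase, isozymes of 1 step did not always move together. In adult culture Aldoc and Pfkm fell by at least 2-fold, while the other aldolase, Aldoa (0.24 ± 0.17), and Pfkl (-0.12 ± 0.25) were not called. Of the 9 genes, 3 rose and 3 fell in adult culture (background 38.8% and 39.2%), 3 rose and 3 fell in neonatal culture (background 34.4% and 31.3%), and 7 rose and 2 fell from NSC to AGES (background 31.7% and 34%). Hexokinase traps glucose in the cell, and Hk2 is its inducible form (gene at chr6:82725025-82774454, minus strand, GRCm38). Hk2 read 80.1, 109, 87.5 and 74.7 CPM in NSC and 3.82, 4.5, 15.1 and 16.2 CPM in AGES. Neonatal Hk2 read 42.4, 26.9, 23.9 and 31.8 CPM in neoAC CellC and 19.96, 18.9, 23.2 and 18.1 CPM in neoAC direct. Adult Hk2 read 61.5, 66.2, 63.9 and 71.3 CPM in AdAC CellC and 4.97, 4.79, 3.36 and 3.3 CPM in AdAC direct. NSC held the highest levels and AGES and AdAC direct overlapped at the lowest, while all other neighbours in the order (NSC, AdAC CellC, neoAC CellC, neoAC direct, AGES) were apart. Hk2 rose in adult culture by a log2 fold change of 4.01 ± 0.35, adjusted p = 5.3e-10, whereas in neonatal culture the log2 fold change was 0.64 ± 0.30, adjusted p = 0.066, which was called without neoAC CellC replicate 3 (0.76) and in 3 other settings (0.61 to 0.87). The effect of culture on Hk2 differed between the ages (interaction 3.37 ± 0.45, adjusted p = 8.3e-07). From NSC to AGES Hk2 fell, with a log2 fold change of -3.14 ± 0.32 (-3.03 ± 0.33 without NSC replicate 2). For Hk2, AGES replicates 1 and 2 lay below replicates 3 and 4.

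Hk1 is the hexokinase of most brain cells. The Hk1 level was 116, 161, 117 and 106 CPM in NSC and 234, 218, 226 and 265 CPM in AGES. Among neonatal libraries Hk1 was at 191, 189.7, 221 and 184 CPM in neoAC CellC and 118, 128, 128 and 101 CPM in neoAC direct. Among adult libraries Hk1 was at 165, 171, 160.0 and 167 CPM in AdAC CellC and 130.4, 144, 149.6 and 128 CPM in AdAC direct. AGES and neoAC CellC overlapped at the top, and AdAC direct, NSC and neoAC direct overlapped at the bottom. Hk1 rose in both cultures, by 0.27 ± 0.10 in adult and 0.73 ± 0.10 in neonatal cells on the log2 scale, the adult call being lost without AdAC direct replicate 1 (0.24) or 4 (0.24), with DESeq2 size factors (0.18) and with no filter (0.17). It rose from NSC to AGES by 0.92 ± 0.10 (1.06 ± 0.09 without NSC replicate 2). Gpi1, which turns glucose phosphate into fructose phosphate, was called in 1 of the 7 pairwise comparisons, AGES against NSC (-0.78 ± 0.20, adjusted p = 0.0013; -0.35 ± 0.11 without NSC replicate 2), and that call was lost in a fit of the 2 groups alone (-0.69). Levels of Gpi1 were 573, 1407, 624 and 551 CPM in NSC and 416, 422, 489 and 505 CPM in AGES. Neonatal cells had Gpi1 at 613, 446, 517 and 448 CPM in neoAC CellC and 417, 454, 456 and 364 CPM in neoAC direct. Adult cells had Gpi1 at 483, 499.9, 503 and 528 CPM in AdAC CellC and 417, 459, 418 and 379 CPM in AdAC direct. NSC replicate 2 was the highest library, and all neighbouring groups overlapped.

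Phosphofructokinase is the committing step of glycolysis, and its muscle-type (Pfkm), liver-type (Pfkl) and platelet-type (Pfkp) subunits come from separate genes. Pfkm read 167, 184, 185 and 176 CPM in NSC and 521, 485, 456 and 432 CPM in AGES. Neonatal Pfkm read 346, 333, 383 and 327 CPM in neoAC CellC and 424, 475, 465 and 379 CPM in neoAC direct. Adult Pfkm read 60.5, 68.4, 66.3 and 73.4 CPM in AdAC CellC and 438, 435, 393 and 382 CPM in AdAC direct. AGES, both directly isolated groups and neoAC CellC overlapped in a chain, NSC lay lower and AdAC CellC lowest. In adult culture Pfkm fell by 2.62 on the log2 scale (adjusted p = 1.6e-18) and in neonatal culture by 0.33 (adjusted p = 0.0012), and this change differed between the ages (-2.29 ± 0.12, adjusted p = 1.4e-14). The neonatal fall was not called with library totals as the only scaling (-0.10). Set against AdAC CellC, AGES had more Pfkm (2.82 ± 0.09, adjusted p = 1.5e-19).

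The Pfkp level was 2.15, 2.25, 2.26 and 1.2 CPM in NSC and 5.38, 2.78, 6.63 and 7.24 CPM in AGES. Among neonatal libraries Pfkp was at 184, 203, 200.4 and 182 CPM in neoAC CellC and 24.1, 31.8, 22.6 and 29.3 CPM in neoAC direct. Among adult libraries Pfkp was at 114, 126, 119 and 147 CPM in AdAC CellC and 204, 179.5, 168 and 185 CPM in AdAC direct. Pfkp was lowest in NSC and AGES and was high in AdAC direct and neoAC CellC, which overlapped, while neoAC direct lay far below. Pfkp rose in neonatal culture by 2.84 ± 0.18, adjusted p = 1.2e-12 and fell in adult culture, with a log2 fold change of -0.54 ± 0.17, adjusted p = 0.0048, and the change differed by -3.38 ± 0.24, adjusted p = 1.2e-11. Pfkp of neoAC direct was lower than that of AdAC direct (log2 fold change -2.77 ± 0.18). The counts of Pfkp share a stretch with the neighbouring gene Pitrm1, and strand was not stated for the counting, so part of the Pfkp level is uncertain.

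Levels of Pfkl were 87.6, 205, 95.4 and 68.4 CPM in NSC and 153, 131, 221 and 278 CPM in AGES. Neonatal cells had Pfkl at 91.4, 77, 87 and 70.1 CPM in neoAC CellC and 114, 137, 122 and 96.5 CPM in neoAC direct. Adult cells had Pfkl at 87.6, 94.3, 89.7 and 94 CPM in AdAC CellC and 97.4, 109.7, 99 and 89.98 CPM in AdAC direct. Pfkl overlapped between all neighbouring groups. AGES exceeded NSC by 0.78 ± 0.25, adjusted p = 0.008, or 1.22 ± 0.18 without NSC replicate 2, and exceeded neoAC CellC by 1.27 ± 0.25, adjusted p = 8.8e-05. Without AGES replicate 4 (0.56), and in a fit of the 2 groups alone (0.87), the difference from NSC was no longer called. Pfkfb3 makes the activator of phosphofructokinase and ran from 78.2 ± 6.62 CPM in AdAC direct and 90.9 ± 6.2 in AdAC CellC to 234 ± 26.1 in neoAC direct and 243 ± 20.6 in AGES. AGES and neoAC direct overlapped at the top and the 2 adult groups at the bottom, and neoAC direct exceeded AdAC direct by 1.58 ± 0.10, adjusted p = 2.8e-13. Its rise in adult culture (0.22 ± 0.10, adjusted p = 0.045) was lost without any 1 of 5 libraries, AdAC CellC replicates 3 (0.20) and 4 (0.21) and AdAC direct replicates 1 (0.17), 3 (0.22) and 4 (0.22), and with other settings (0.12 to 0.19), while its fall in neonatal culture was -0.50 ± 0.10.

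Aldolase splits the sugar into trioses, and its brain form Aldoc (chr11:78322968-78327781, plus strand, GRCm38), long used as a marker of astrocytes, was the member that fell most in adult culture. Aldoc read 405, 406, 299 and 449 CPM in NSC and 3390.1, 3287, 3327 and 3230.4 CPM in AGES. Neonatal Aldoc read 385, 378, 474 and 334 CPM in neoAC CellC and 1924, 2159.6, 2113 and 1711 CPM in neoAC direct. Adult Aldoc read 50.8, 59.1, 60.7 and 89.3 CPM in AdAC CellC and 2408, 2215, 2296 and 2123 CPM in AdAC direct. AGES were highest, the 2 directly isolated groups overlapped below them, NSC and neoAC CellC overlapped next, and AdAC CellC was lowest and apart. Aldoc fell in adult culture, with a log2 fold change of -5.12 ± 0.16, adjusted p = 6.3e-19, and in neonatal culture (-2.33 ± 0.14, adjusted p = 3.9e-13), and the fall was larger in adult cells (-2.79 ± 0.20, adjusted p = 5.4e-12). It rose from NSC to AGES by 3.09 ± 0.15 (3.10 ± 0.17 without NSC replicate 2), and AGES exceeded AdAC CellC by 5.67 ± 0.17 and neoAC CellC by 3.08 ± 0.15. Counted per kilobase of exon, or of the longest coding transcript, Aldoc ranked first of the 35 genes in AGES, neoAC direct and AdAC direct.

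Aldoa is the ubiquitous aldolase. The Aldoa level was 549, 1053, 668 and 508 CPM in NSC and 857, 814, 1239 and 1198 CPM in AGES. Among neonatal libraries Aldoa was at 831, 785, 913 and 751 CPM in neoAC CellC and 572, 610.3, 634 and 439.8 CPM in neoAC direct. Among adult libraries Aldoa was at 833, 804, 791 and 815 CPM in AdAC CellC and 708, 741, 685 and 609 CPM in AdAC direct. All neighbouring groups overlapped. Aldoa rose in neonatal culture (0.54 ± 0.17, adjusted p = 0.0076), and in adult culture the log2 fold change was 0.24 ± 0.17, adjusted p = 0.2. From NSC to AGES it rose by 0.56 ± 0.17, adjusted p = 0.0053 and by 0.83 ± 0.14 without NSC replicate 2.

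**Figure D3:**
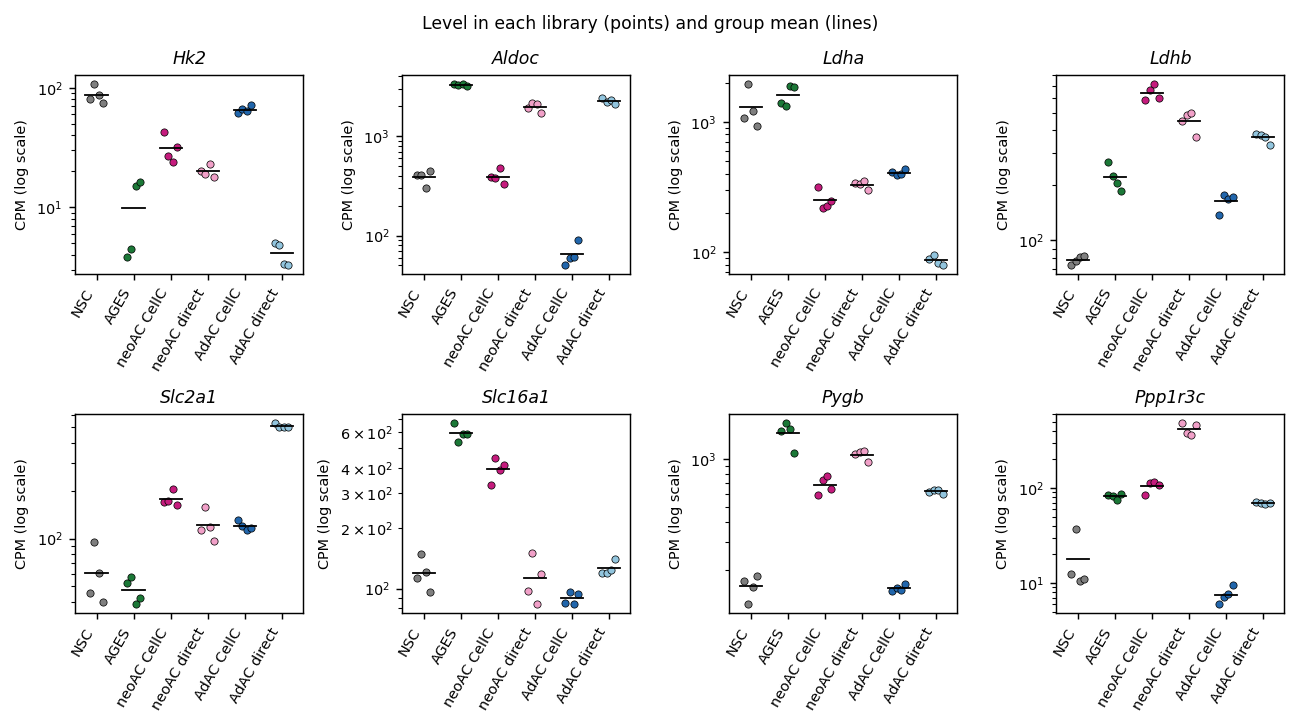
CPM (log axis) of Hk2, Aldoc, Ldha, Ldhb, Slc2a1, Slc16a1, Pygb and Ppp1r3c in each of the 24 libraries (points), with a line at the mean of each group of 4. Aldoc and Ppp1r3c sit lowest in AdAC CellC, Slc2a1 highest in AdAC direct, and Slc16a1 highest in AGES.

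Of the lower steps, from triose to pyruvate, all 7 genes were called higher in adult culture (background 38.8%), with a median log2 fold change of 0.84, and 3 passed 2-fold (background 23.3%). With no filter on low counts Tpi1 lost its call (0.55). In neonatal culture 3 of the 7 rose (Pgk1, Pgam1 and Pkm; background 34.4%), 0 fell (background 31.3%) and the median was 0.22. The Pgam1 call there (0.36 ± 0.14, adjusted p = 0.032) was lost without any 1 of 5 libraries, neoAC CellC replicates 1 (0.32) and 3 (0.35) and neoAC direct replicates 1 (0.36), 2 (0.36) and 4 (0.30). By the interaction, the change was larger in adult cells for 4 of the 7, Gapdh, Pgam1, Eno1 and Pkm (background 35.4%). The 7 genes are Tpi1 (triose interconversion), Gapdh (the oxidising step), Pgk1 (which makes ATP), Pgam1, the enolases Eno1 and Eno2, and pyruvate kinase Pkm (the last step). Their log2 fold changes in adult culture were 0.65 ± 0.23 for Tpi1, 0.65 ± 0.16 for Gapdh, 0.84 ± 0.19 for Pgk1, 1.31 ± 0.15 for Pgam1, 1.09 ± 0.15 for Eno1, 0.81 ± 0.20 for Eno2 and 1.03 ± 0.13 for Pkm. In the same comparison 6 of 7 oligodendrocyte markers and 7 of 8 astrocyte markers fell and 8 of 8 proliferation genes rose (median log2 fold changes -1.92, -3.10 and 5.96), and their part was not tested.

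Pgam1 read 151, 284, 169 and 142 CPM in NSC and 86.4, 80.6, 98.3 and 109 CPM in AGES. Neonatal Pgam1 read 173, 147, 165 and 151 CPM in neoAC CellC and 126, 125, 136 and 109.7 CPM in neoAC direct. Adult Pgam1 read 155, 156, 158 and 168 CPM in AdAC CellC and 67.6, 62.7, 64.8 and 61.9 CPM in AdAC direct. NSC, AdAC CellC and neoAC CellC overlapped at the top, with neoAC direct, AGES and AdAC direct apart below, and Pgam1 rose in adult culture by 1.31 ± 0.15, adjusted p = 1.3e-08 and fell from NSC to AGES (-0.99 ± 0.15; -0.72 ± 0.09 without NSC replicate 2). Levels of Eno1 were 995, 1597, 1235 and 995 CPM in NSC and 581, 547, 815 and 833 CPM in AGES. Neonatal cells had Eno1 at 903, 655, 765 and 711 CPM in neoAC CellC and 761, 879, 857 and 661 CPM in neoAC direct. Adult cells had Eno1 at 1193, 1129.7, 1097 and 1208 CPM in AdAC CellC and 525, 604, 545 and 508 CPM in AdAC direct. NSC and AdAC CellC overlapped above the other 4 groups, of which AGES overlapped with each of the rest. Eno1 rose in adult culture by 1.09 ± 0.15 and fell from NSC to AGES (-0.80 ± 0.15; -0.63 ± 0.14 without NSC replicate 2). Eno1 shares over 50% of its transcript with other genes, Eno1b foremost.

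Eno2 is the neuronal enolase. The Eno2 level was 1.04, 1.28, 0.223 and 0.803 CPM in NSC and 2.81, 3.25, 3.65 and 1.65 CPM in AGES. Among neonatal libraries Eno2 was at 15.8, 16.1, 14.4 and 12.2 CPM in neoAC CellC and 13.3, 12.8, 13.4 and 10.9 CPM in neoAC direct. Among adult libraries Eno2 was at 26.9, 30.9, 38.8 and 33 CPM in AdAC CellC and 17.4, 18.9, 20.2 and 17.3 CPM in AdAC direct. AdAC CellC was highest, AdAC direct next and NSC lowest and apart, neoAC CellC and neoAC direct overlapped below AdAC direct, and AGES lay between these and NSC. AGES had less Eno2 than AdAC CellC (log2 fold change -3.51 ± 0.23) and more than NSC (1.76 ± 0.28; 2.04 ± 0.30 without NSC replicate 2). In AdAC CellC the neuron markers (6 genes) summed to 51.5 to 79.9 CPM, against 12.9 to 15.8 CPM in AdAC direct and 8.07 to 13.8 CPM in AGES. Most of the AdAC CellC sum was 1 gene, Stmn2, with a mean of 59.1 CPM. In adult culture 2 of the 6 neuron markers rose and 3 fell (median log2 fold change -0.69), and their part was not tested.

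For the other genes of these steps, Tpi1 was at 520.3 ± 152 CPM in AGES and 199 ± 14.3 in AdAC direct, its highest and lowest means, Gapdh ran from 1545 ± 499 in NSC to 845 ± 49.8 in AdAC direct, Pgk1 from 437 ± 220.0 in NSC to 180.0 ± 6.47 in AdAC direct and Pkm from 1559.5 ± 269 in NSC to 499.9 ± 34.1 in AdAC direct. Thus AdAC direct had the lowest mean of each of the 4. From NSC to AGES Gapdh fell with all 4 NSC libraries (-0.48 ± 0.16, adjusted p = 0.011) and was -0.25 ± 0.14, adjusted p = 0.12 without NSC replicate 2, whereas Tpi1 went from 0.16 ± 0.23, adjusted p = 0.55 to 0.61 ± 0.15, adjusted p = 0.0011 and Pgk1 from -0.08 ± 0.19, adjusted p = 0.73 to 0.33 ± 0.10, adjusted p = 0.0076.

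Both lactate dehydrogenase genes changed with culture, each in opposite directions at the 2 ages. Ldha (chr7:46841475-46855627, plus strand, GRCm38) encodes the subunit that favours making lactate, and Ldhb the subunit that prevails where lactate is used. Ldha read 1063, 1967, 1220.0 and 937 CPM in NSC and 1395, 1323, 1888 and 1837 CPM in AGES. Neonatal Ldha read 317, 217, 226 and 245 CPM in neoAC CellC and 339, 336, 349 and 297 CPM in neoAC direct. Adult Ldha read 411, 391, 394 and 436 CPM in AdAC CellC and 88.3, 94.8, 82.5 and 79.9 CPM in AdAC direct. AGES and NSC overlapped at the top, AdAC CellC lay below them, neoAC direct and neoAC CellC overlapped next and AdAC direct was lowest. Ldha rose in adult culture by 2.24 ± 0.17, adjusted p = 1.5e-11 and fell in neonatal culture (-0.39 ± 0.17, adjusted p = 0.04), a difference of 2.63 ± 0.24, adjusted p = 5.2e-10. The neonatal fall lost its call without any 1 of 6 of the 8 libraries, neoAC CellC replicates 2 (-0.32), 3 (-0.33) and 4 (-0.38) and neoAC direct replicates 1 (-0.38), 2 (-0.38) and 3 (-0.37), and with library totals as the scaling (-0.16). AGES exceeded neoAC CellC by 2.68 ± 0.18 and AdAC CellC by 1.98 ± 0.17, and directly isolated neonatal cells exceeded adult ones by 1.93 ± 0.17. AGES against NSC gave 0.31 ± 0.16, adjusted p = 0.1 with all NSC libraries and 0.58 ± 0.13, adjusted p = 3.8e-04 without NSC replicate 2, and it was also called without AGES replicate 2 and in 3 other settings (0.40 to 0.42).

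Levels of Ldhb were 73.5, 77.1, 80.8 and 82.2 CPM in NSC and 268, 225, 205 and 185 CPM in AGES. Neonatal cells had Ldhb at 583, 666, 721 and 602 CPM in neoAC CellC and 449, 484, 497 and 368 CPM in neoAC direct. Adult cells had Ldhb at 137, 176, 169 and 173 CPM in AdAC CellC and 382, 378, 368 and 333 CPM in AdAC direct. Ldhb was highest in neoAC CellC and lowest in NSC, and only neoAC direct and AdAC direct overlapped in the order of the groups. In adult culture Ldhb fell (-1.16 ± 0.11, adjusted p = 5.0e-10) and in neonatal culture it rose (0.52 ± 0.11, adjusted p = 1.6e-04), the reverse of Ldha at both ages, and the interaction was -1.67 ± 0.15. It rose from NSC to AGES by 1.49 ± 0.11 (1.48 ± 0.12 without NSC replicate 2), and AGES had less of it than neoAC CellC (log2 fold change -1.54 ± 0.11). Ldhb shares over 50% of its transcript with a copy, Gm5514, which held few counts beside it.

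Of the membrane carriers, Slc2a1 and Slc16a1 fell in adult and rose in neonatal culture, and Slc16a3 rose in adult culture. Slc2a1 (GLUT1; chr4:119108711-119137983, plus strand, GRCm38) is the glucose carrier of astrocytes and of the blood vessel wall. Slc2a1 read 45.5, 95.6, 61 and 39.96 CPM in NSC and 52.4, 56.9, 38.8 and 42.3 CPM in AGES. Neonatal Slc2a1 read 170.5, 173, 205 and 162 CPM in neoAC CellC and 114, 159, 119 and 96.8 CPM in neoAC direct. Adult Slc2a1 read 131, 120.0, 113 and 117 CPM in AdAC CellC and 532, 504, 499.8 and 500.3 CPM in AdAC direct. AdAC direct was far above all other groups, with replicate 1 above the other 3, and NSC and AGES overlapped at the lowest levels. Slc2a1 fell in adult culture (-2.08 ± 0.19, adjusted p = 8.8e-10) and rose in neonatal culture (0.54 ± 0.19, adjusted p = 0.014), and the change differed by -2.62 ± 0.27, adjusted p = 7.9e-09. The neonatal rise was no longer called without neoAC direct replicate 4 (0.45) or with no filter (0.48). Slc2a1 was lower in neoAC direct than in AdAC direct (log2 fold change -2.06 ± 0.19) and lower in AGES than in neoAC CellC (-1.90 ± 0.19). Endothelial markers (5 genes) summed to 76.3 to 81.8 CPM in AdAC direct, 51 to 55.1 CPM in AdAC CellC, 77.2 to 314 CPM and 40.9 to 68.9 CPM in the directly isolated and cultured neonatal cells and 1.22 to 2.67 CPM in AGES, and their part was not tested.

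Slc16a1 (MCT1) carries lactate in either direction. The Slc16a1 level was 113, 149, 121 and 95.7 CPM in NSC and 669, 540.4, 587 and 592 CPM in AGES. Among neonatal libraries Slc16a1 was at 330.2, 449, 391 and 412 CPM in neoAC CellC and 97.3, 151, 84.3 and 118 CPM in neoAC direct. Among adult libraries Slc16a1 was at 84.4, 96, 83.9 and 94 CPM in AdAC CellC and 120.3, 119.8, 124 and 140.1 CPM in AdAC direct. AGES were highest and neoAC CellC next, both apart from the other 4 groups, which overlapped in a chain. Slc16a1 rose in neonatal culture by 1.81 ± 0.14, adjusted p = 4.0e-11 and fell in adult culture (-0.49 ± 0.14, adjusted p = 0.0025), with an interaction of -2.30 ± 0.20. From NSC to AGES it rose by 2.32 ± 0.15 (2.44 ± 0.15 without NSC replicate 2), and AGES exceeded AdAC CellC by 2.74 ± 0.15 and neoAC CellC by 0.59 ± 0.14, the last of which was not called with library totals as the only scaling (0.29).

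Slc16a3 (MCT4) is the lactate export carrier of highly glycolytic cells. Levels of Slc16a3 were 0 CPM in all 4 libraries of NSC and 0 CPM in all 4 libraries of AGES. Neonatal cells had Slc16a3 at 0.624, 0.943, 0.554 and 0.665 CPM in neoAC CellC and 0.423, 1.3, 0.442 and 0.499 CPM in neoAC direct. Adult cells had Slc16a3 at 6.54, 7.67, 6.96 and 6.67 CPM in AdAC CellC and 3.69, 3.86, 3.8 and 4.03 CPM in AdAC direct. AdAC CellC lay above AdAC direct, and both lay above the overlapping neonatal groups. At the floor that 0 counts allow (3 counts per library, 0.0986 CPM as the mean over AGES), AdAC CellC was at least 70.6-fold higher than AGES and neoAC CellC at least 7.07-fold higher, a limit that covers counting error only. In adult culture Slc16a3 rose (0.85 ± 0.24, adjusted p = 0.0035), and in neonatal culture the log2 fold change was 0.04 ± 0.31, adjusted p = 0.96, or 0.62 and called without neoAC direct replicate 2. Neonatal cells had less of it than adult cells in culture (log2 fold change -3.31 ± 0.28) and after direct isolation (-2.49 ± 0.28).

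Entry of pyruvate into mitochondria runs through the carrier genes Mpc1 and Mpc2 and the pyruvate dehydrogenase subunit Pdha1, and the kinases Pdk1, Pdk2 and Pdk4 hold that enzyme back. Of these 6, all were higher in neoAC CellC than in AdAC CellC (median 0.67; background 28.5%). In adult culture 4 fell and 1 rose (background 39.2% and 38.8%), and in neonatal culture 1 rose and 1 fell (background 34.4% and 31.3%). Pdk4 read 0.0978, 0.0304, 0.0637 and 0.1 CPM in NSC and 0.039, 0.087, 0.0641 and 0 CPM in AGES. Neonatal Pdk4 read 25.6, 27.1, 27.1 and 23.2 CPM in neoAC CellC and 99.6, 92.9, 91.1 and 105 CPM in neoAC direct. Adult Pdk4 read 12.8, 16.3, 12.8 and 11.5 CPM in AdAC CellC and 42, 41.6, 41.8 and 42.8 CPM in AdAC direct. Pdk4 was highest in neoAC direct, and every primary group stood apart from the next, whereas NSC and AGES overlapped near 0. Pdk4 fell in culture at both ages, with log2 fold changes of -1.66 ± 0.10, adjusted p = 2.4e-13 in adult and -1.91 ± 0.10, adjusted p = 2.9e-14 in neonatal cells. The summed counts of AdAC CellC were 271 times those of AGES (95% counting interval 124 to 739.7), and those of neoAC CellC 523 times (240.0 to 1426), counting error only.

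The Pdk2 level was 14.4, 17.5, 15.9 and 16.2 CPM in NSC and 94.3, 90.3, 88.6 and 90.2 CPM in AGES. Among neonatal libraries Pdk2 was at 79.5, 84.3, 104 and 84.2 CPM in neoAC CellC and 101, 107, 101 and 78.4 CPM in neoAC direct. Among adult libraries Pdk2 was at 41.6, 56, 47.7 and 47.8 CPM in AdAC CellC and 167, 169, 166 and 152 CPM in AdAC direct. Pdk2 was highest in AdAC direct and lowest in NSC, and neoAC direct, AGES and neoAC CellC overlapped. It fell in adult culture (-1.76 ± 0.10, adjusted p = 2.0e-14), with a log2 fold change of -0.14 ± 0.10, adjusted p = 0.21 in neonatal culture, and rose from NSC to AGES by 2.51 ± 0.10 (2.55 ± 0.11 without NSC replicate 2).

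Levels of Pdk1 were 9.03, 70.1, 8.25 and 6.92 CPM in NSC and 50.9, 41.8, 53.8 and 49.6 CPM in AGES. Neonatal cells had Pdk1 at 49.3, 55.7, 58 and 55.2 CPM in neoAC CellC and 50.2, 49.1, 51.8 and 57.2 CPM in neoAC direct. Adult cells had Pdk1 at 15.4, 20.2, 17.1 and 18.1 CPM in AdAC CellC and 45.2, 38.1, 42.4 and 47.3 CPM in AdAC direct. NSC replicate 2 held 70.1 CPM of Pdk1, above every AGES library, while the other 3 NSC libraries lay below every AGES library. AGES against NSC gave 1.05 ± 0.48, adjusted p = 0.06 with 4 NSC libraries and 2.60 ± 0.12, adjusted p = 1.1e-15 with 3, and with all 4 it was called with DESeq2 size factors (1.14) or with at least 10 counts asked of every library (1.15). Pdk1 fell in adult culture (-1.29 ± 0.48, adjusted p = 0.02), a call lost without AdAC CellC replicate 1 (-1.21), and was higher in neoAC CellC than in AdAC CellC by 1.62 ± 0.48. Both SE come from the fit of all groups, NSC replicate 2 included, and in both comparisons the Pdk1 levels did not overlap. Of the carriers and Pdha1, Mpc1 ran from 24.9 ± 1.72 CPM in NSC to 75.8 ± 3.48 in AdAC direct, Mpc2 from 42.9 ± 3.55 in NSC to 75.9 ± 2.76 in AGES and Pdha1 from 153 ± 8.82 in AdAC direct to 286 ± 15.3 in neoAC direct. Mpc2 rose from NSC to AGES by 0.82 ± 0.07 and Mpc1 by 0.65 ± 0.09 (0.88 ± 0.07 and 0.63 ± 0.09 without NSC replicate 2).

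**Figure D4:**
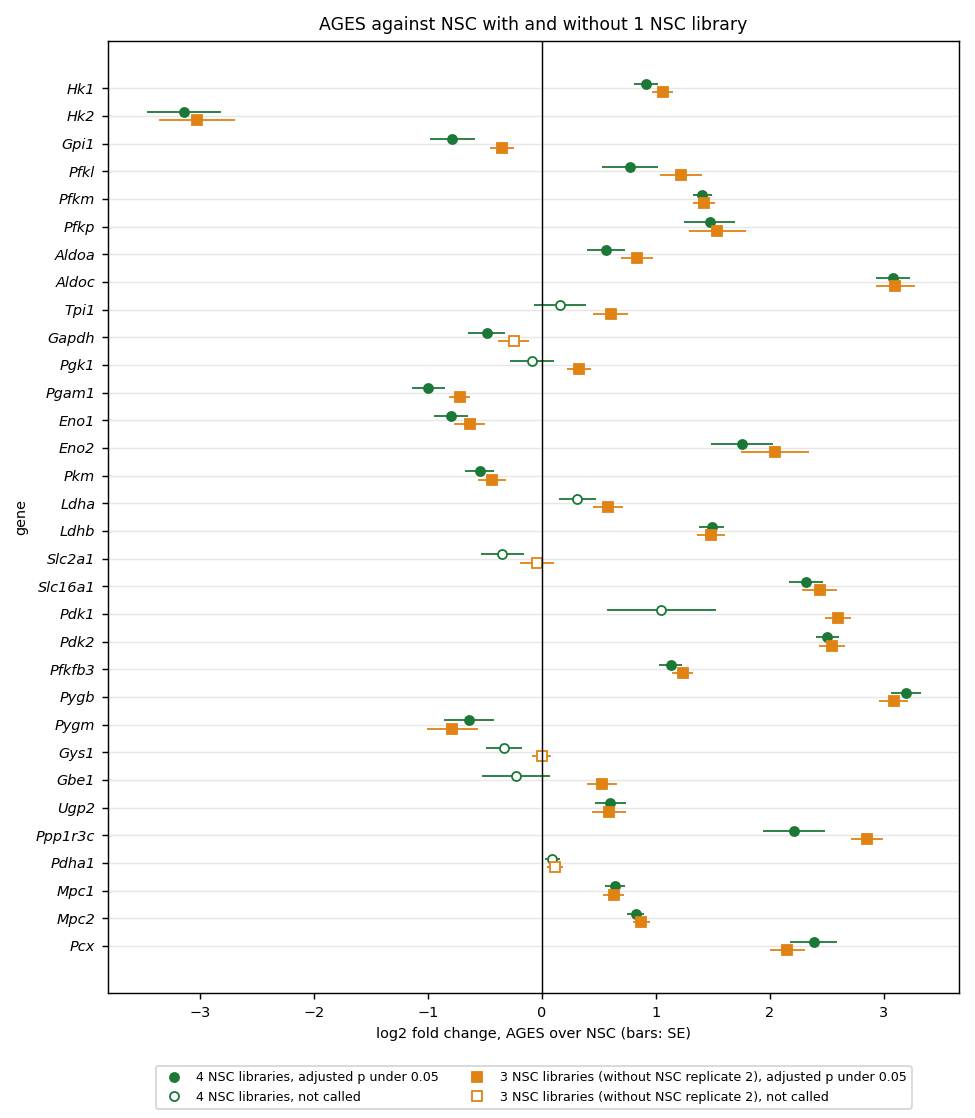
Log2 fold change (± SE) of AGES against NSC for 32 genes, with all 4 NSC libraries and without NSC replicate 2 (Slc16a3, Fbp2 and Pdk4, near 0 counts in these groups, are left out). Pdk1 moves from 1.05 to 2.60, whereas Aldoc, Pygb and Hk2 stay at 3.10, 3.09 and -3.03 or close to it.

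Of the 6 glycogen genes, 4 fell in adult culture (Pygb, Pygm, Ppp1r3c and Ugp2) and 4 in neonatal culture (Pygb, Pygm, Ppp1r3c and Gys1), while Gbe1 rose at both ages and Ugp2 rose in neonatal culture, with medians of -1.36 and -0.69. Of all genes 39.2% fell in adult and 31.3% in neonatal culture. In neoAC direct 5 of the 6 were higher than in AdAC direct (background 35%), and Pygm was lower. Pygb, the brain glycogen phosphorylase, and Pygm, the muscle form, release glucose phosphate from glycogen. Pygb read 171, 122, 156 and 183 CPM in NSC and 1492, 1681, 1529 and 1094 CPM in AGES. Neonatal Pygb read 590.5, 732, 776 and 649 CPM in neoAC CellC and 1066, 1095, 1123 and 952 CPM in neoAC direct. Adult Pygb read 147, 153, 148 and 163 CPM in AdAC CellC and 619, 637, 639.6 and 600.3 CPM in AdAC direct. AGES and neoAC direct overlapped at the top, neoAC CellC and AdAC direct next, and NSC and AdAC CellC at the bottom. Pygb fell in adult culture (-2.03 ± 0.12, adjusted p = 9.1e-14) and in neonatal culture (-0.62 ± 0.12, adjusted p = 5.2e-05), and rose from NSC to AGES by 3.20 ± 0.13 (3.09 ± 0.13 without NSC replicate 2). AGES exceeded AdAC CellC by 3.25 ± 0.13 and neoAC CellC by 1.08 ± 0.12.

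The Pygm level was 12.2, 8.53, 14.8 and 14.2 CPM in NSC and 7.37, 11.5, 9.04 and 3.95 CPM in AGES. Among neonatal libraries Pygm was at 3.59, 3.64, 5.57 and 3.8 CPM in neoAC CellC and 14, 22.2, 15.4 and 17.7 CPM in neoAC direct. Among adult libraries Pygm was at 7.98, 7.81, 7.92 and 6.52 CPM in AdAC CellC and 156, 136, 131 and 124 CPM in AdAC direct. AdAC direct was far above all others and neoAC CellC had the lowest mean and overlapped with AGES, of which replicate 4 lay within its range, while neoAC direct, NSC, AGES and AdAC CellC overlapped in a chain. Pygm fell by 4.18 on the log2 scale in adult culture (adjusted p = 7.9e-14) and by 2.06 in neonatal culture (adjusted p = 3.5e-08), and the fall was larger in adult cells (-2.11 ± 0.31). Pygm was lower in neoAC direct than in AdAC direct (log2 fold change -2.98 ± 0.22).

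Ppp1r3c brings phosphatase to glycogen synthase. Levels of Ppp1r3c were 12.5, 36.8, 10.6 and 11 CPM in NSC and 84.3, 83.2, 74.5 and 87.2 CPM in AGES. Neonatal cells had Ppp1r3c at 83.8, 114, 115 and 107 CPM in neoAC CellC and 485, 375, 366 and 458 CPM in neoAC direct. Adult cells had Ppp1r3c at 6.02, 7.11, 7.65 and 9.43 CPM in AdAC CellC and 71.6, 70.2, 68.3 and 69.98 CPM in AdAC direct. Levels were highest in neoAC direct and lowest in AdAC CellC, and neoAC CellC and AGES overlapped, with every other neighbour apart. Ppp1r3c fell in culture at both ages, with log2 fold changes of -3.21 ± 0.29, adjusted p = 8.6e-10 in adult and -2.002 ± 0.26, adjusted p = 6.4e-07 in neonatal cells. From NSC to AGES Ppp1r3c rose by 2.21 ± 0.27, or 2.85 ± 0.14 without NSC replicate 2, and neoAC CellC exceeded AdAC CellC by 3.80 ± 0.29.

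Gbe1 makes the branches of glycogen. Gbe1 read 12.4, 45.3, 11.8 and 11.8 CPM in NSC and 16.2, 17.1, 21.7 and 14.5 CPM in AGES. Neonatal Gbe1 read 58.7, 79.1, 76.6 and 72 CPM in neoAC CellC and 24, 22.2, 22.2 and 28.6 CPM in neoAC direct. Adult Gbe1 read 37.1, 36.9, 29.9 and 30 CPM in AdAC CellC and 13.4, 11.7, 12.7 and 14.2 CPM in AdAC direct. Here neoAC CellC was highest and apart, AdAC direct had the lowest mean, and NSC, with replicate 2 high, overlapped with every group but neoAC CellC. Unlike the phosphorylases, Gbe1 rose in culture at both ages, by 1.36 ± 0.30, adjusted p = 3.3e-04 in adult and 1.56 ± 0.30, adjusted p = 8.4e-05 in neonatal cells. AGES against NSC gave -0.23 ± 0.30, adjusted p = 0.53, and without NSC replicate 2 it was 0.53 ± 0.13, adjusted p = 0.001. The synthase Gys1 ran from 51.6 ± 1.62 CPM in AdAC CellC to 104 ± 9.63 in neoAC direct and fell in neonatal culture (-0.76 ± 0.16, adjusted p = 1.5e-04), with part of its transcript overlapping Ruvbl2. Ugp2, which supplies the activated glucose, ran from 78.4 ± 6.54 in AdAC CellC to 286 ± 48.5 in neoAC CellC. Ugp2 rose in neonatal culture (0.70 ± 0.14) and fell in adult culture (-0.70 ± 0.14).

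Pyruvate carboxylase, Pcx, refills the citric acid cycle and in brain is largely an astrocyte enzyme. The Pcx level was 52.7, 24.1, 70.05 and 51.9 CPM in NSC and 314, 293, 205 and 227 CPM in AGES. Among neonatal libraries Pcx was at 283, 310.1, 314 and 262 CPM in neoAC CellC and 599, 628, 742 and 487 CPM in neoAC direct. Among adult libraries Pcx was at 104, 129, 124 and 128 CPM in AdAC CellC and 178, 196, 188 and 173 CPM in AdAC direct. Pcx was highest in neoAC direct and lowest in NSC, with neoAC CellC and AGES overlapping and the other neighbours apart. Pcx rose from NSC to AGES by 2.39 ± 0.21 (2.16 ± 0.15 without NSC replicate 2), fell in neonatal culture (-1.07 ± 0.20, adjusted p = 5.1e-05) and in adult culture (-0.60 ± 0.20, adjusted p = 0.0085), and neoAC direct exceeded AdAC direct by 1.74 ± 0.20. Fbp2, a fructose bisphosphatase of muscle, had at most 22 counts in a library. Levels of Fbp2 were 0.163, 0.668, 0.669 and 0.234 CPM in NSC and 0.39, 0.377, 0.16 and 0.527 CPM in AGES. Neonatal cells had Fbp2 at 0.0312, 0.0262, 0 and 0 CPM in neoAC CellC and 0.683, 0.582, 0.578 and 0.532 CPM in neoAC direct. Adult cells had Fbp2 at 0, 0.0291, 0.159 and 0 CPM in AdAC CellC and 0, 0.0927, 0.178 and 0.113 CPM in AdAC direct. Each group but neoAC CellC had a library above the highest neoAC CellC library. Summed counts of neoAC direct were 42.2 times those of neoAC CellC (95% counting interval 11.3 to 355).

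Isozyme shares compare genes within a library and do not depend on scaling between libraries; each share is the percentage of one isozyme in the counts per kilobase of its family, and 66 of 84 comparisons of a share passed an adjusted p of 0.05 by exact two-sided permutation of 4 against 4 libraries, Benjamini-Hochberg adjusted over the 84. All 66 were at the smallest p this design gives, 0.0286 (adjusted 0.0364), so p does not rank them. Aldoc took 74.6% ± 1.31 of aldolase counts in AdAC direct and 6.66% ± 1.59 in AdAC CellC, 75.9% ± 1.28 in neoAC direct and 29.8% ± 1.39 in neoAC CellC, and 34.5% ± 8.83 in NSC and 74.3% ± 4.34 in AGES. The AGES, AdAC direct and neoAC direct shares thus lay close together, and the neoAC direct and AdAC direct shares were not called different (adjusted p = 0.35, exact permutation).

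Ldhb took 89.9% ± 0.446 of the lactate dehydrogenase counts in AdAC direct, 84.2% ± 3.48 in neoAC CellC, 74.1% ± 1.37 in neoAC direct, 45.8% ± 3.27 in AdAC CellC, 22.8% ± 5.6 in AGES and 12.1% ± 3.3 in NSC. Hk2 took 50.2% ± 1.13 of hexokinase counts in NSC, 36.1% ± 1.3 in AdAC CellC, 19.5% ± 1.46 in neoAC direct, 18.5% ± 4.54 in neoAC CellC, 5.47% ± 3.37 in AGES and 4.09% ± 0.933 in AdAC direct, and the Hk2 share of cultured minus directly isolated neonatal cells was -0.927 percentage points (adjusted p = 0.7, exact permutation). Pfkp took 21.8% ± 1.01 of phosphofructokinase counts in AdAC CellC and 11% ± 0.704 in neoAC CellC but 0.239% ± 0.0846 in AGES. Pygm took 24.6% ± 1.85 of phosphorylase counts in AdAC direct, against 6.91% ± 0.874 in AdAC CellC. Pdk4 took 42.6% ± 3.82 of the 3 kinases in neoAC direct, against 0.039% ± 0.0312 in AGES and 0.329% ± 0.199 in NSC.

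**Figure D5:**
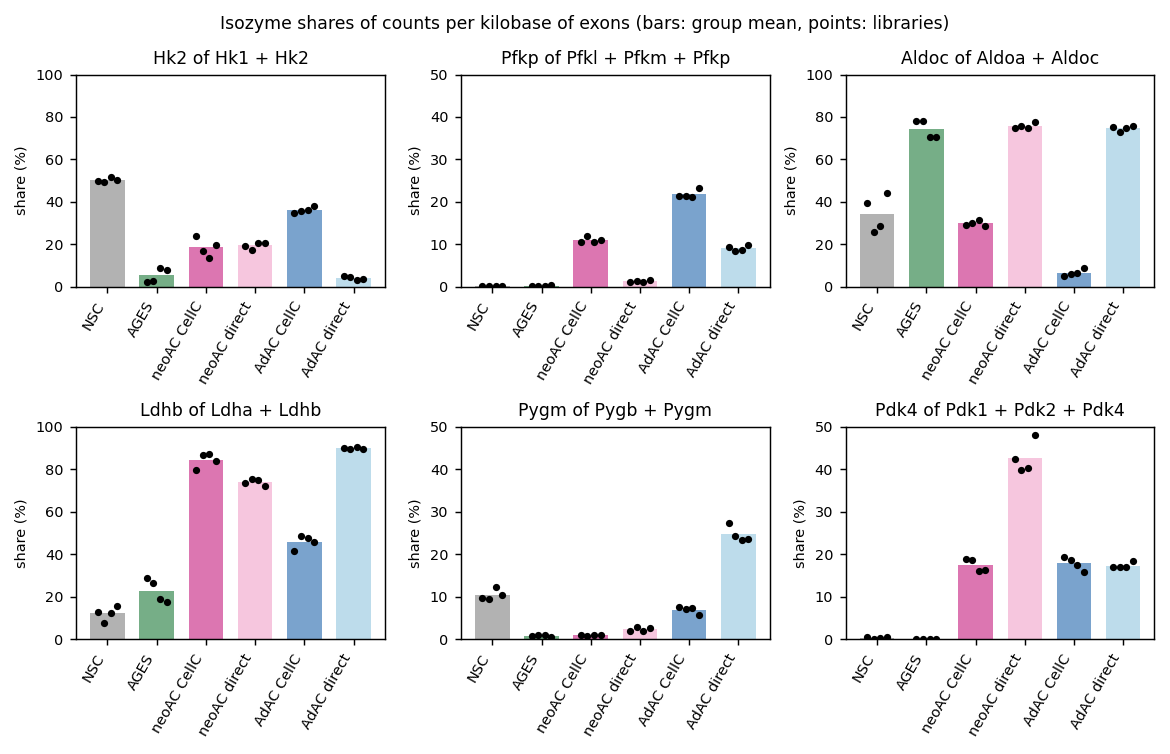
Share (percent) of Hk2, Pfkp, Aldoc, Ldhb, Pygm and Pdk4 in the counts per kilobase of their isozyme family, with bars at the group mean from 0, points for the 4 libraries, and axes to 100% or 50%. Aldoc holds about the same share in AGES and in both directly isolated groups and drops to 6.66% in AdAC CellC.

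Of 55 other genes of the pathway, 50 were tested. In adult culture 20 rose and 27 fell (background 38.8% and 39.2%), in neonatal culture 15 and 18 (background 34.4% and 31.3%), and from NSC to AGES 16 and 17 (background 31.7% and 34%). AGES were higher for 16 and lower for 29 against AdAC CellC (background 31% and 45.2%), and for 9 and 28 against neoAC CellC (background 34.1% and 40.5%). Neonatal exceeded adult cells for 26 and fell below for 15 in culture (background 28.5% and 35.2%), and for 21 and 22 after direct isolation (background 35% and 36.4%).

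Named here are those first by size of change among the called genes at 10 CPM or more. Ppp1r3g, a phosphatase subunit on glycogen, fell in adult culture from 48.6 to 0.298 CPM (-7.33 ± 0.25) and in neonatal culture from 25 to 1.52 (-4.05 ± 0.20). Phkg1, a subunit of phosphorylase kinase, fell in adult culture from 250.4 to 4.68 CPM (-5.74 ± 0.26). Pdp1, a phosphatase that reverses the pyruvate dehydrogenase kinases, rose from NSC to AGES, from 6.38 to 109 CPM (4.10 ± 0.20), and in neonatal culture (3.46 ± 0.19). Stbd1, a glycogen-binding protein, and Slc2a3 (GLUT3), a glucose carrier of neurons, rose in adult culture by 3.51 ± 0.28 and 2.36 ± 0.48 on the log2 scale. G6pc3, a glucose phosphatase, was at 0.124 CPM in AGES and 0.135 in NSC, against 39.5 in AdAC CellC. Pfkfb4 was at 0.0894 CPM in AGES and 0.12 in NSC, against 18.3 in AdAC CellC. The AGES and NSC values of both genes lie near the floor of 3 counts. Phkb, a regulatory subunit of phosphorylase kinase, was higher in AGES than in AdAC CellC (2.24 ± 0.10) and neoAC CellC (1.25 ± 0.09), and Slc2a4 (GLUT4) was higher in neoAC CellC than in AdAC CellC (3.29 ± 0.15). Pck2 fell from NSC to AGES (-2.01 ± 0.16), Ppp1r3d fell in neonatal culture (-1.87 ± 0.12) and Slc16a7, another lactate carrier, was lower in neoAC direct than in AdAC direct (-3.62 ± 0.27). Gpd1, which links glycolysis to glycerol, was lower in AGES than in NSC (-2.69 ± 0.32) and lower in neonatal than in adult cells, with log2 fold changes of -3.14 ± 0.33 in culture and -3.48 ± 0.34 after direct isolation.

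The comparisons of adult with neonatal cells differ also in kit and region, and those of AGES with primary cells also in medium and in mouse substrain.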

How the data were processed

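Poly(A) RNA of 24 libraries in 6 groups was sequenced with the TruSeq Stranded mRNA kit in paired reads of 100 nt. The deposited table holds raw read counts per gene, which the authors made with bcl2fastq 2.20, STAR 2.7.3a (GRCm38, up to 20 alignments a read) and featureCounts on the exons of the Gencode annotation; settings for strand and multiple alignments were not given in the sources used here. Symbols of 49326 of 49671 genes came from Gencode. The 35 genes and the other lists were chosen with earlier results of these data known.

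Counts were tested in R 4.3.3 with edgeR 4.0.16 (filterByExpr, TMM, robust quasi-likelihood, 1 fit of 6 groups, no covariate, SE as the log2 fold change over the root of F) and Benjamini-Hochberg adjustment over 19691 genes; DESeq2 1.42.0 was an alternative. On simulated counts for AdAC CellC against AdAC direct, 96 of 100 genes changed 2-fold and 100 of 100 changed 4-fold were called among 17862 genes, with 10 false calls. The simulation held these groups alone, the same spread for all genes and few changed genes. It therefore does not show how the fit of 6 groups performs where most genes are called. Primary replicates are separate isolations and NSC and AGES replicates separate cultures. No pair of libraries of a group agreed within sampling noise. Isozyme shares used exact permutation in scipy 1.17.1 and counts per kilobase of exon; no length and the longest coding transcript were alternatives, the last chosen after seeing the data. Values in every library are given for the first 4 genes in each direction of each comparison (called, 2-fold, no overlap), isozyme pairs, and genes never called or at the floor of 3 counts, and Gpi1 besides; of other pathway genes the first 2 in each direction at 10 CPM or more were eligible. Promoter windows came from RefSeq. Protein sequences were not used here.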

Additional observations from a re-analysis of the deposited data

Results flagged for a closer look

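Of 205 values of a gene in a group of 4 libraries, 14 had 1 library farther from the others than Dixon's 95% critical value (0.829) allows, where chance gives about 1 in 20. Of these, 6 were NSC replicate 2: Gpi1 at 1407 CPM, Tpi1 at 835, Pdk1 at 70.1, Gys1 at 142, Gbe1 at 45.3 and Ppp1r3c at 36.8 CPM, each above the other 3 NSC libraries. The remaining 8 were Pfkp in NSC replicate 4 at 1.2 CPM, Tpi1 in AdAC CellC replicate 4 at 336, Slc2a1 in AdAC direct replicate 1 at 532, Slc16a3 in neoAC direct replicate 2 at 1.3, Pygm in neoAC CellC replicate 3 at 5.57, Pygm in AdAC CellC replicate 4 at 6.52, Ugp2 in neoAC direct replicate 4 at 244 and Mpc1 in AdAC direct replicate 2 at 70.7 CPM.

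The change in culture differed between adult and neonatal cells for 24 of the 35 genes by the interaction in the edgeR quasi-likelihood fit, at an adjusted p under 0.05, a share of 68.6% beside 68.6% of all genes tested. As the adult minus the neonatal log2 fold change, it was positive for Fbp2 (4.14 ± 1.39, and 2.18 and not called without AdAC CellC replicate 3), Hk2 (3.37 ± 0.45), Ldha (2.63 ± 0.24), Eno1 (1.14 ± 0.21), Pgam1 (0.95 ± 0.20), Gapdh (0.80 ± 0.23), Pfkfb3 (0.71 ± 0.14), Gys1 (0.57 ± 0.22), Pkm (0.54 ± 0.18) and Pdha1 (0.48 ± 0.10). The Fbp2 value is a fitted change between groups near 0 counts and is no bound. It was negative for Pfkp (-3.38 ± 0.24), Aldoc (-2.79 ± 0.20), Slc2a1 (-2.62 ± 0.27), Slc16a1 (-2.30 ± 0.20), Pfkm (-2.29 ± 0.12), Pygm (-2.11 ± 0.31), Ldhb (-1.67 ± 0.15), Pdk2 (-1.62 ± 0.14), Pygb (-1.41 ± 0.17), Ugp2 (-1.40 ± 0.19), Ppp1r3c (-1.21 ± 0.37), Mpc1 (-0.48 ± 0.12), Hk1 (-0.46 ± 0.15) and Mpc2 (-0.40 ± 0.10).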

How the results depend on the processing

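No total of genes called, at an adjusted p under 0.05 alone or at 2-fold, moved by over 1.5 times in any alternative run: DESeq2 size factors, library totals alone, no filter, at least 10 counts in every library, DESeq2's Wald test, a fit of the compared groups alone, the replicate block, and each library left out in turn. By direction, at an adjusted p under 0.05, 2 counts did: genes higher in AGES than in neoAC CellC went from 14 to 9 with library totals alone, and genes lower in AGES than in NSC from 7 to 4 in a fit of these groups alone. Of 4442 recomputed log2 fold changes, 82 kept their direction and lost the call, 85 gained one, 5 changed sign and 8 had no adjusted p in DESeq2. Of 840 recomputed isozyme shares, 672 left out 1 library each and were not retested, so no call could change there. In the rest, with no length or the longest coding transcript, 2 lost and 4 gained the call. The 5 sign changes were Pdha1 in neonatal culture (0.17), Hk1 in AGES against neoAC CellC (-0.042) and Pdk2 in the same comparison (-0.26), all with library totals alone, and Pgk1 and Gbe1 in AGES against NSC without NSC replicate 2. With 1 NSC or AGES library left out, Pgk1 ran from -0.24 to 0.33 and Gbe1 from -0.42 to 0.53. The causes were not tested. With the replicate block the genes called numbered 28, 22, 25, 28, 26, 27, 21 and 24, in the order adult culture, neonatal culture, AGES against NSC, AGES against AdAC CellC, AGES against neoAC CellC, age in culture, age after direct isolation and the interaction, and 1 call was gained (Pdk1 in AGES against NSC) and 2 lost (Ldha in neonatal and Pfkfb3 in adult culture). Deviations of same-numbered libraries had a median correlation of 0.0027 over 60 pairs (-0.15 to 0.11), against 0.0032 over the other 180. These pairs include groups that could not share samples, such as NSC and adult cells. The median therefore does not settle whether cultured and directly isolated libraries of the same age were paired by number. Precision is limited by counts for Slc16a3 and Pdk4 in NSC and AGES and for Fbp2 throughout.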
